A study of Drosophila melanogaster with 3 samples.

Results

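Deep intronic binding sites of the CG13296 protein are summits of chromatin immunoprecipitation sequencing (ChIP-seq) peaks that lay inside a gene, in no annotated exon, and more than 5 kb from the transcription start site (TSS) of any gene. A summit is the position of highest enrichment in a peak. The rule took 540 of the 5724 summits that passed the authors' test of irreproducible discovery rate (IDR), a filter for peaks that recur between replicates. Beyond that filter, no measured strength entered the rule. Just outside the limit lay summits in Eip75B, Gug and Nuak, each 4989 bp from a TSS. Just inside lay summits in Tis11 at 5020 bp, in the overlapping genes CG46429 and Sesn at 5024 bp, and in CG46339 at 5027 bp.

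All samples formed 1 group of 3 biological replicates, recorded as separate biosamples, of whole Drosophila melanogaster embryos of mixed sex aged 6 to 18 hours. The strain is a transgenic line that stably expresses CG13296 with GFP at its C-terminus, and the tagged protein comes from an inserted copy, so nothing is measured on an untagged protein. In the labels, a description field names the libraries as input, in conflict with the assay title and the derivation records, and 1 age field holds a value no embryo can have, so the age was taken from the source name. Whole embryos mix all tissues, so a weak peak may be a site in few cells or a site weakly bound in many, and these cannot be told apart.

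CG13296, named Prdm13 in the annotation, belongs to the PR domain family of zinc-finger proteins. In the mouse, Prdm13 acts with basic helix-loop-helix factors in the choice between inhibitory and excitatory neurons in the spinal cord. Long introns of Drosophila developmental genes often hold enhancers, stretches of DNA that tissue-specific factors bind and that act on a promoter from a distance. The gene Prdm13 itself (3L, 6163127 to 6164682) is 1.56 kb long, has 0 deep intronic bases and had 0 summits of the IDR set within 5 kb.

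The sequences around some of the deep intronic summits had an arrangement that the rule did not use. In these, GAGAAA, the word TACACT and short words built around CACTG or CAGTG lay on both sides of the summit. In this arrangement the words were read toward the summit on both strands. The 5 sequences below show it at summits of high signal, supported by all 3 replicates (a summit of each one's top 5724 within 200 bp), outside one arm that is not shown, that carry such a word on both sides at 30 to 130 bp. Each runs 133 bp to either side of the summit on build dm6, as held in the release 6 genome of RefSeq, and capitals mark the words that point toward the summit.
Gug, chr3L:8458191-8458457, plus strand: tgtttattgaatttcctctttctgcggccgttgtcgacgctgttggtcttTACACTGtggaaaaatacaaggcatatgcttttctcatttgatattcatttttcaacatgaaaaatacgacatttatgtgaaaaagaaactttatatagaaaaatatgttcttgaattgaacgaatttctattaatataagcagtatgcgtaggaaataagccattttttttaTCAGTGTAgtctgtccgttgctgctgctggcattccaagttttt
Hr4, chrX:1963791-1964057, plus strand: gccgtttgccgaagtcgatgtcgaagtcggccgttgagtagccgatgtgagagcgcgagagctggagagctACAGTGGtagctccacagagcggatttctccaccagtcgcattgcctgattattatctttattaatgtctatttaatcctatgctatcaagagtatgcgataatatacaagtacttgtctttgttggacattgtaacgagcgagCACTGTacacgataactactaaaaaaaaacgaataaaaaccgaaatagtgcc
prage, chrX:1849892-1850158, plus strand: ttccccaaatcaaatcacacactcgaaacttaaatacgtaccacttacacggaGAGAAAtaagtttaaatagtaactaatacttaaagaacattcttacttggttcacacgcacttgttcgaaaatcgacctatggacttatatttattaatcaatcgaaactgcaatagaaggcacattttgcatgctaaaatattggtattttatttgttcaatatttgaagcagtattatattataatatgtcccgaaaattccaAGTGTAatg
wdb, chr3R:27569753-27570019, plus strand: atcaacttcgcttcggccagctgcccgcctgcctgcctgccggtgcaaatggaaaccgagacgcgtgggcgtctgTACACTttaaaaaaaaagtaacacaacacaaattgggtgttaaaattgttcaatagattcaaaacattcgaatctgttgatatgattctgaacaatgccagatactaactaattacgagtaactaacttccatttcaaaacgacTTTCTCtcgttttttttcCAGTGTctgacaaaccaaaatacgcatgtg
cic, chr3R:20261500-20261766, plus strand: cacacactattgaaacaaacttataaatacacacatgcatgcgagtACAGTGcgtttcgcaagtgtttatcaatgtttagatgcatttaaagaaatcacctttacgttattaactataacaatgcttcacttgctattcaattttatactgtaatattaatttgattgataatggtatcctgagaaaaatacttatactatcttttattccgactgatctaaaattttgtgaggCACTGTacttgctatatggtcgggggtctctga

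In the Gug sequence, from a gene for the Atrophin corepressor, TACACTG stands on the left and TCAGTGTA on the right, whose other strand starts with the same word. In the Hr4 sequence, from a gene for a nuclear receptor of the ecdysone response, ACAGTGG faces CACTGT across the centre. The sequence in cic, the gene of the repressor Capicua that acts downstream of receptor tyrosine kinases, carries ACAGTG on the left and its reverse complement on the right. The summit in Gug ranked 321, 226 and 235 by signal in replicates 1, 2 and 3, that in Hr4 302, 424 and 509, and that in cic 582, 689 and 494.

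The orientation was tested for each of the 2016 words of 6 bases that differ from their reverse complement, a test chosen after seeing the data. It compared the summits with the word within 200 bp only in the inward direction with those that had it only in the outward direction, by an exact binomial test with Benjamini-Hochberg adjustment. Of these words, 18 passed an adjusted p of 0.05, a background of 0.893%, and all 18 have a direction by construction. Of the 18, 7 were also more frequent within 100 bp of the summit than in control windows centred 500 bp away. They are written below as they point toward the summit.

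ACACTG pointed inward at 97 summits and outward at 30, so 76.4% of the summits with 1 direction had it inward (adjusted exact p = 2.00e-06). The inward share was 78.9%, 78.2% and 75.7% in the deep intronic summits of the 3 replicates' own lists, 77.6% ± 1.70 (SD, n = 3). The replicates' top lists held 83.3%, 78.3% and 83.9% of the 540 summits within 200 bp. Their sites are thus largely the same, so sequence shares by replicate, here and below, are not independent. GAGAAA pointed inward at 136 and outward at 48 summits, 73.9% (adjusted exact p = 1.23e-07). Its inward share in the replicates was 67.0%, 68.0% and 72.4%. TACACT was inward at 94 against 33 summits and CACTGA at 98 against 41. ACAGTG had an inward share of 69.0%, and it was 66.9% for both CAGTGG and the related word GCACTG. Leaving out a replicate, here and below, kept only the pooled summits supported by both others. Without replicates 1, 2 and 3, 375, 383 and 366 deep intronic summits remained. The direction then no longer passed for ACAGTG (67.7%, 67.7% and 68.9% inward, adjusted exact p = 0.0716, 0.0948 and 0.0533). Nor did it pass for CAGTGG (adjusted exact p = 0.0996, 0.134 and 0.247). The words overlap one another, and neighbouring summits share sequence, so these are not 7 separate observations.

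Each of the 7 words had its largest excess of inward over outward copies at 50 to 100 bp among the spans compared. These spans differ in length, so the counts set the directions against each other within a span. ACAGTG occurred 60 times inward against 13 times outward between 50 and 100 bp from the summit, but 6 times against 5 within 25 bp. CACTGA occurred 55 times inward and 13 times outward at 50 to 100 bp, and 7 against 12 times within 25 bp. At 300 to 400 bp the counts of ACAGTG were 27 inward and 20 outward. GAGAAA occurred 72 times inward and 13 times outward at 50 to 100 bp, and 20 against 7 times within 25 bp, so its inward excess reached the centre. For ACAGTG and CACTGA taken whole, the excess was in the flanks and inward, and their outward copies showed no such peak there. This does not give their common core 1 direction. Read inward, ACAGTG holds CAGTG, while CACTGA holds CACTG, which is the reverse complement of CAGTG. The core therefore occurred in both directions, and its direction was not tested apart from the words. How the peak caller placed the summits is not given in the sources used here and no reads were used, so a property of the sites and one of summit placement cannot be told apart in these counts.

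**Figure D1:**
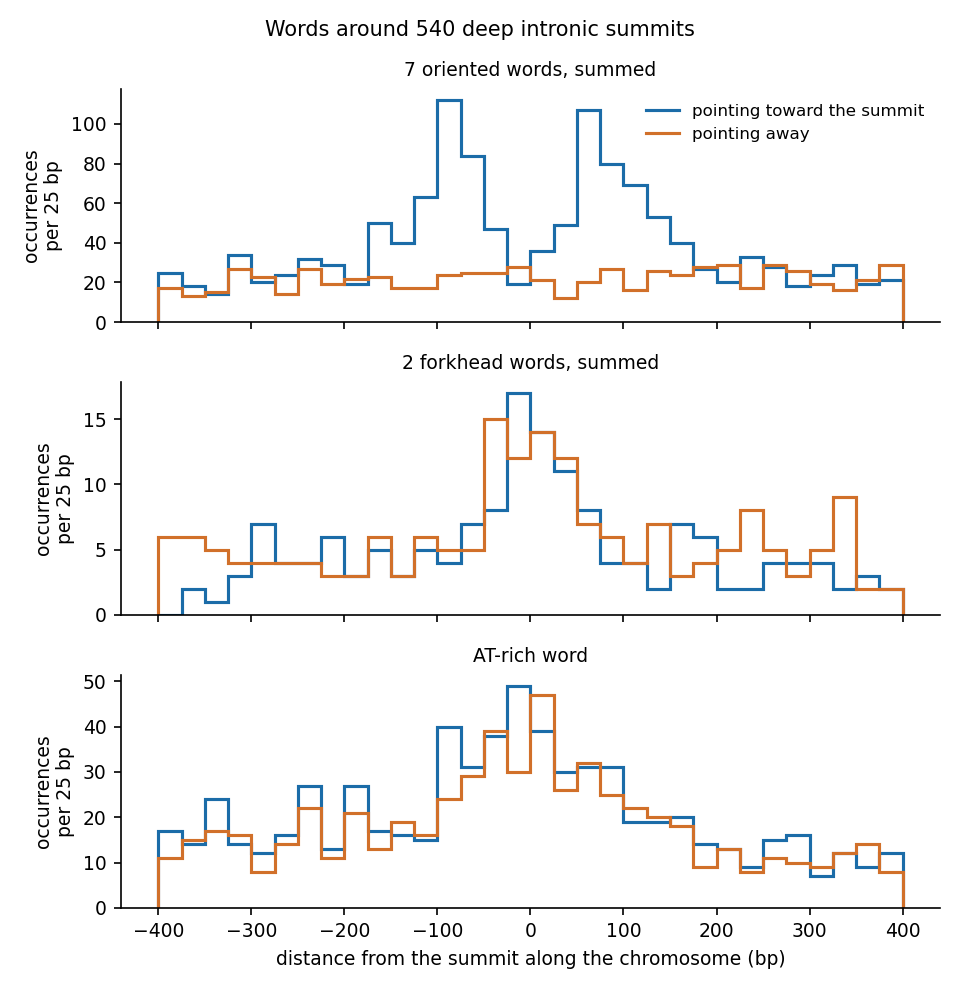
Occurrences per 25 bp of 7 oriented words (summed), 2 forkhead words (summed) and the AT-rich word AAATAT against distance from the summit in bp, over 540 deep intronic summits, with copies pointing toward the summit in blue and away in orange. Inward oriented words reach 112 occurrences on the left and 107 on the right, between 50 and 100 bp away, while outward copies stay between 12 and 29 and the other words peak at the centre in both directions.

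At least 1 of the 7 words pointed inward at 30 to 130 bp on both sides of 84 of the 540 summits, 15.6%, on 1 side only of 193 and on neither side of 263. The same count around a point 500 bp away gave 9 summits on both sides, 1.67%, 124 on 1 side and 407 on neither. These words were chosen from the same summits, so the values describe them and carry no test. Near intronic summits, 500 to 5000 bp from a TSS, had both sides at 11.8% against 1.78% around the control point. Intergenic summits had both sides at 83 of 554 against 9 of 554, and promoter summits, within 500 bp of a TSS, had 6.58% against 1.90%. As a set, the words were thus not particular to deep introns. ACACTG also passed both tests, of frequency and of direction, in each other class, as did TACACT and CACTGA. For ACACTG the odds ratios were 2.15, 2.65 and 2.19 and the inward shares 67.5%, 77.4% and 58.9% at near intronic, intergenic and promoter summits. ACAGTG and CAGTGG passed neither test at intergenic summits, and GCACTG and GAGAAA neither at promoters. GAGAAA also failed on frequency at near intronic summits, and CAGTGG at promoters. CACTGA and GAGAAA were more frequent at deep intronic than at promoter summits (Fisher's exact test, adjusted p = 0.00602 and 0.0107).

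**Figure D2:**
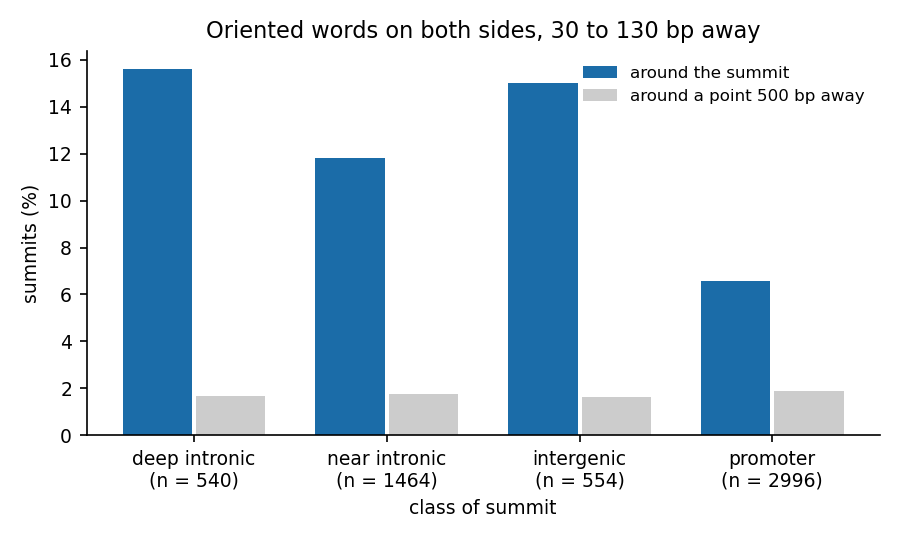
Share of summits (%) with an inward oriented word on both sides, 30 to 130 bp away, by class of summit, around the summit in blue and around a point 500 bp away in grey. Deep intronic summits have 15.6% against 1.67%, and all 4 classes lie above their own control points.

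Among all words of 6 bases, with reverse complements joined, 125 differed between the summit windows (100 bp on each side) and control windows of equal width centred 500 bp away on a random side. That is 6.01% of the words, by an exact McNemar test with Benjamini-Hochberg adjustment, and 93 were more frequent at the summit and 32 less. ACAGTG was in 15.2% of summit windows and 4.07% of control windows. It was in 80 summits only in the summit window and in 20 only in the control window (adjusted exact p = 3.87e-07). In the replicates' own deep intronic lists the word was in 15.1%, 14.2% and 16.9% against 4.78%, 6.63% and 5.88%. The replicate values at the summit did not overlap those of the control windows, though the lists share most of their sites. CACTGA had an odds ratio of 3.80, the word ACTGTG of 3.58, the word ATACTG of 3.40 and the word ACACTG of 3.12. The excess of ATACTG no longer passed in 9 of the 12 other settings tried, among them without replicate 1 (odds ratio 2.62, adjusted exact p = 0.167).

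Of the 93 words more frequent at the summit, 21 held no G or C and 46 held 1, out of 36 and 192 such words. AATATT, an AT-rich palindrome, was in 37.4% of summit and 19.1% of control windows (odds ratio 2.71). At near intronic, intergenic and promoter summits its odds ratio was 2.41, 2.33 and 2.30. GC content was 35.8% ± 6.47 (SD over 540 windows) at the summit and 40.8% ± 7.91 in the control windows. It was higher at the summit in 175 cases, lower in 351 and equal in 14 (exact sign test, p = 1.33e-14). In the replicates it was 36.6%, 36.3% and 34.9% at the summit and 40.6%, 40.9% and 41.9% in the control. All 3 summit values lay below all 3 control values. The words most depleted by odds ratio were rich in G and C. GAGGAC was in 0.556% of summit and 3.15% of control windows (odds ratio 0.176), and the word CCGGAG in 0.926% and 4.07%. The next in order by odds ratio, CGGACG at 0.235, did not pass, nor did CCGGGC, in 1.11% of summit and 3.89% of control windows, or the word CCACGG (odds ratio 0.263). Without replicate 1 or 2, CCACGG did pass (odds ratio 0.0667 in both cases, adjusted exact p = 0.0174 and 0.0209). GAGGAC failed without replicate 1, 2 or 3 (odds ratios 0.333, 0.273 and 0.273).

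A set of 53 motifs known from the literature was searched on both strands, allowing overlap between motifs, and 5 passed the same test, 9.43%. TATAAA, the TATA box of core promoters, was in 38.0% of deep intronic windows and 20.4% of control windows, an odds ratio of 2.58 (adjusted exact p = 3.78e-09). In the replicates it was in 35.8%, 36.3% and 41.4% against 22.2%, 23.6% and 22.0%, without overlap. These windows lie over 5 kb from any annotated start, and the motif is also an AT-rich word. The excess was not particular to them. TATAAA was in 36.7%, 36.1% and 34.6% of near intronic, intergenic and promoter windows, against 22.7%, 23.1% and 20.8% of their control windows.

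TGTTTAC and TATTTAC, spellings of the site of forkhead factors, a family with a winged-helix DNA-binding domain, were more frequent at the summit. Another forkhead spelling searched, TTTGTTTA, did not pass (7.22% against 5.74%, odds ratio 1.31, adjusted exact p = 0.736). TGTTTAC was in 11.1% of summit and 4.44% of control windows (odds ratio 2.71, adjusted exact p = 0.00148), and TATTTAC in 13.5% against 6.30% (odds ratio 2.30, adjusted exact p = 0.00172). The replicates gave 12.2%, 10.9% and 11.2% for TGTTTAC at the summit against 5.54%, 4.29% and 6.45%. Together, 121 summits carried TGTTTAC or TATTTAC, 22.4%, and 12 carried both. TGTTTAC stood within 25 bp of the summit in 33 copies, 17 in one direction and 16 in the other, so it sat at the centre without a direction where the words above sat in the flanks. TGTTTAC did not pass against a control window 1000 bp away (odds ratio 1.71, adjusted exact p = 0.129), and TATTTAC did. Among the 2862 strongest summits of the IDR set, TGTTTAC did not pass either (odds ratio 2.08, adjusted exact p = 0.405), and TATTTAC did. At a distance limit of 10 kb, with fewer summits, neither passed (odds ratios 2.56 and 1.72, adjusted exact p = 0.177 and 0.643). The 4 sequences below show the central site at the summits of highest signal outside the same arm and the genes above, supported by all 3 replicates, over 40 bp on each side, with the forkhead word in capitals where it is within 25 bp of the summit.
Dad, chr3R:17065120-17065200, plus strand: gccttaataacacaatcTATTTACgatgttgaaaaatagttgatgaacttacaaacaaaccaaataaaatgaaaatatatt
S, chr2L:1072346-1072426, plus strand: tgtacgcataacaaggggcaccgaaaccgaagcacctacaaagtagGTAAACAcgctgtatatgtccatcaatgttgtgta
sba, chr3R:23909587-23909667, plus strand: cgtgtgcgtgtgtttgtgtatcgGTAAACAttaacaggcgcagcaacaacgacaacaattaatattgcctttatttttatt
pum, chr3R:9127021-9127101, plus strand: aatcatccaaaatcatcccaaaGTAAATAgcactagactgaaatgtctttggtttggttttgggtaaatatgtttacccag

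Dad codes for the inhibitory Smad of the Dpp pathway, S for Star, which traffics the ligands of the EGF receptor, and pum for the translational repressor Pumilio. The summit in pum lay 30889 bp from the nearest TSS and those in Dad, S and sba at 7515, 5425 and 13346 bp.

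The Mef2 motif TATTTATA was in 7.22% of summit and 2.96% of control windows (adjusted exact p = 0.0232), and CACCC was the only one of the 5 less frequent at the summit, with an odds ratio of 0.545. With the fewer summits left without replicate 1, 2 or 3, TATTTATA failed (odds ratios 2.88, 2.60 and 3.12, against 2.53 over all 540). CACCC failed without replicate 3 (0.597, adjusted exact p = 0.0699). GATA, Zelda, GAGA and E-box motifs did not pass. The E-box CANNTG was in 63.1% of summit and 65.4% of control windows.

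Between classes of summit, 6 of 159 comparisons of motif shares passed Fisher's exact test, 3.77%, and all 6 were against promoters. The core of the insulator protein BEAF-32, TATCGAT, was at 7 of 540 deep intronic summits, 1.30%, and at 10.8% of promoter summits (odds ratio 0.109, adjusted exact p = 3.57e-14). The element of the promoter factor M1BP, GGTCACACT, was at 0 of 540, which allows up to 0.556%, and at 2.34% of promoter summits. The promoter element DRE, TATCGATA, was at 0.185% against 5.71%. The promoter element CATCNCTA and the E-box spelling CAGCTG were also less frequent than at promoters, and a run of A was more frequent, 20.2% against 12.4%. No motif passed against near intronic or intergenic summits, where 2 and 6 of 53 had an unadjusted p under 0.05. Over all words of 6 bases and 3 classes, 51 of 6240 comparisons passed, 0.817%, of which 48 were against promoters. ATTAGG (3.15% against 7.86%) and the word TCTAGA (0.926% against 3.89%) were less frequent than at near intronic summits, and ACACAA more frequent than at intergenic summits (odds ratio 1.77). Motif shares of the bases outside the peaks were not compared between classes.

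Deep introns held fewer summits than their length. The rule takes 21.1% of the bases of the 6 chromosome arms and took 9.43% of the IDR summits (95% exact interval 8.69% to 10.2%), a ratio of 0.447 (exact binomial test, p = 4.32e-124). In the replicates' own top 5724 peaks, 523, 513 and 527 summits were deep intronic, 9.10% ± 0.126 (SD, n = 3). The replicates thus differed by far less than their distance from the share of bases. Summits cluster within genes, so this and the following p-values over summits are too small.

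Within deep introns, summits lay toward the near end. The median distance to the nearest TSS was 8582 bp, with quartiles at 6644 and 13110 bp and a maximum of 47628 bp. At 5 to 10 kb lay 318 summits, 58.9%, where 39.1% of the deep intronic bases lie (adjusted exact p = 4.57e-20). At 10 to 20 kb lay 171 summits (ratio 1.05, adjusted exact p = 0.483), and at 20 to 40 kb 46 (ratio 0.586, adjusted exact p = 4.07e-05). Beyond 40 kb lay 5 summits, 0.926%, against 16.0% of bases (ratio 0.0577, adjusted exact p = 8.44e-33). The replicates' own lists held 4, 5 and 4 summits there and 60.6%, 59.6% and 60.5% at 5 to 10 kb. Annotated transposable elements covered 9.51% of deep intronic bases and 12.5% of those beyond 40 kb, and 1 of the 540 summits. With these bases left out, the ratio of the share of summits to that of bases was 0.464 and the same 3 bins passed.

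**Figure D3:**
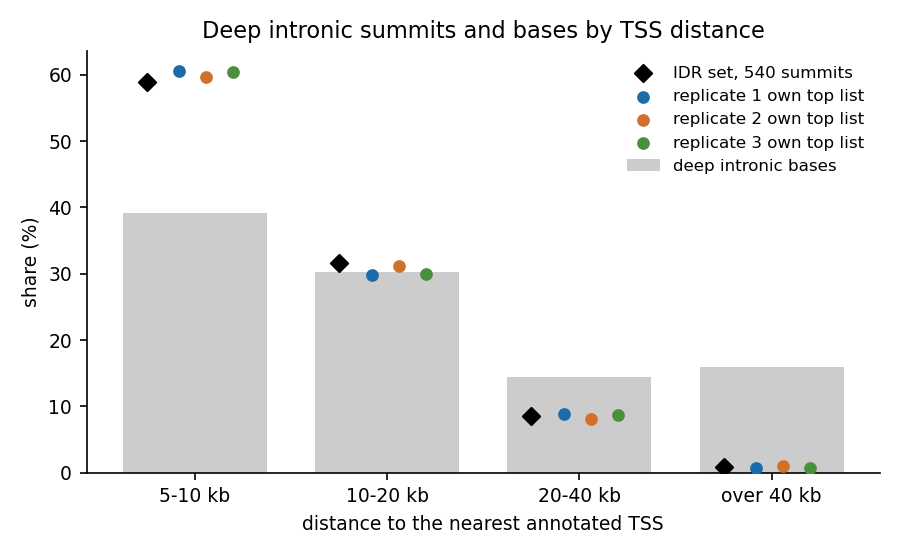
Share (%) of deep intronic bases (grey bars), of the 540 deep intronic summits of the IDR set (black) and of the deep intronic summits in each replicate's own top list (coloured), by distance to the nearest annotated TSS. All 4 lists lie above the bases at 5 to 10 kb, 58.9% against 39.1% in the IDR set, and below them beyond 20 kb.

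First introns held more summits than their length. A total of 285 summits, 52.8% (95% exact interval 48.5% to 57.1%), lay in the first intron of at least 1 transcript, which holds 31.2% of deep intronic bases (ratio 1.69, exact binomial p = 4.02e-25). The replicates' own lists gave 51.8%, 51.9% and 52.8%. By distance, with no test per bin, the ratio was 1.34 for 318 summits at 5 to 10 kb, 1.52 for 171 at 10 to 20 kb and 1.73 for 46 at 20 to 40 kb. Beyond 40 kb, 1 of 5 summits lay in a first intron. Among arms, 2L held 106 summits (ratio 1.34, adjusted exact p = 0.00906), 3R 133 (0.844, adjusted exact p = 0.0406) and the fourth chromosome 0 (adjusted exact p = 0.0353), and 2R, 3L and X did not pass. Without replicate 1, 2 or 3, 3R (0.841, 0.841 and 0.843) and the fourth chromosome did not pass, and 2L did not pass without replicate 2 or 3 (1.28 and 1.34). Replicate 3 had 1 deep intronic summit on the fourth chromosome.

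Deep intronic summits were weaker than those of the other intronic class. By the authors' signal, 40.6% lay among the 2862 strongest of the 5724 summits, against 51.3% of near intronic (odds ratio 0.648, adjusted exact p = 3.39e-05) and 52.5% of promoter summits (odds ratio 0.617, adjusted exact p = 9.79e-07), by Fisher's exact test. Ranked by each replicate, the deep intronic share was 41.9%, 35.6% and 40.2% and the near intronic share 52.5%, 48.4% and 51.2%. Intergenic summits had 44.2% (odds ratio 0.860, 95% interval 0.672 to 1.10, adjusted exact p = 0.222). That difference did pass without replicate 1, 2 or 3 (odds ratios 0.726, 0.616 and 0.669, adjusted exact p = 0.0331, 0.00116 and 0.00890), where only summits found in both other replicates were kept.

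**Figure D4:**
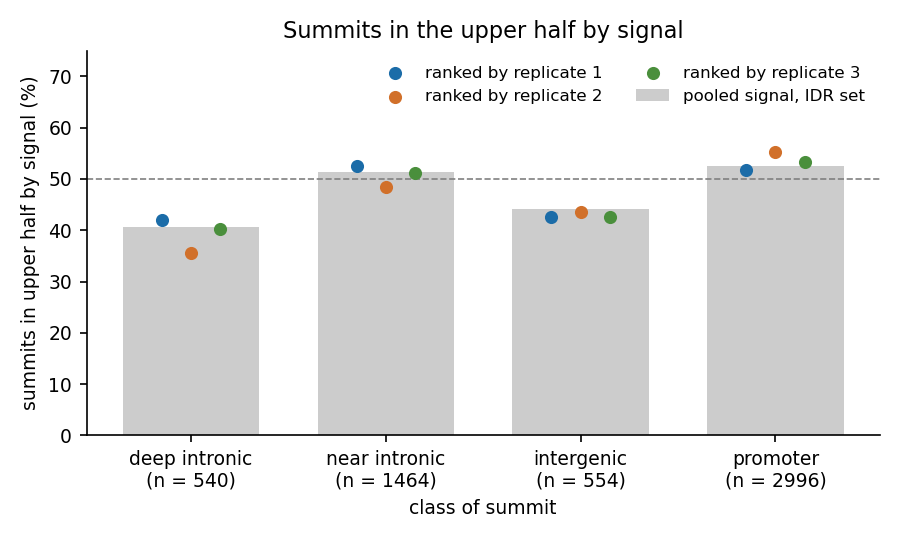
Share of summits (%) among the 2862 of highest signal in the IDR set, for 4 classes, from the pooled list (grey bars) and by each replicate's own rank (coloured points), with a dashed line at 50%. Deep intronic summits lie at 35.6% to 41.9% in the replicates, below the near intronic summits at 48.4% to 52.5%.

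A total of 329 deep intronic summits, 60.9%, lay within 200 bp of a summit in the top 5724 of all 3 replicates, 137 in 2, 65 in 1 and 9 in none. Near intronic summits had 64.8% (odds ratio 0.849, 95% interval 0.689 to 1.05, adjusted exact p = 0.217), promoter summits 64.2% and intergenic summits 59.7%, and no difference passed. The IDR set was itself chosen from these replicates, so this support is not independent. The peak intervals had a fixed width of 440 bp in 299 of the 540 cases, and 172 summits had another summit of the IDR set within 2 kb.

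The 540 summits lay in 337 of the 1812 genes that have deep intronic sequence, 325 of them protein-coding. Of these hosts, 211 held 1 summit, 69 held 2 and 57 held 3 or more. The nearest TSS belonged to the host for 341 summits, 63.1%, and to a neighbour or nested gene for 199. Of the 100 strongest summits of the IDR set, 3 were deep intronic, and of the 500 strongest 18, against 9.43% of the whole set.

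The strongest lay in simj, the gene of the p66 subunit of the nucleosome remodelling complex NuRD, at rank 74 of the IDR set (3L, interval 10682692 to 10683289, summit 10682921). It lay 8103 bp from the nearest TSS, that of CG11811, in an intron of at least 19.6 kb. Its rank was 135, 104 and 34 in replicates 1, 2 and 3. Another summit of the same interval, 199 bp away, ranked 136, and another in the same intron ranked 210. All 7 deep intronic summits of simj had support in all 3 replicates, within 5.38 kb. They are not 7 separate sites, since neighbours matched the same replicate peaks. Those at 10683961 and 10684160 shared ranks 2361, 1459 and 1708. The first intron of simj thus held 3 of the 12 strongest supported summits, of which those at ranks 74 and 136 share 1 interval and the same replicate ranks.

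The next strongest, at rank 81, lay in the first intron of sbb, or scribbler, a transcriptional corepressor, 20114 bp from a TSS and with ranks of 43, 132 and 143. It was among the strongest sites in every replicate despite its distance. The summit in tara, a trithorax-group gene of the SERTAD family, ranked 94 (3R, 16236985) and 104, 101 and 78 in the replicates. It lay in the first intron, 5831 bp upstream of an inner start of tara. A summit at rank 131 lay in the introns of 3 overlapping genes, Hr3, CG46321 and CG12912, where Hr3 is an ecdysone-response nuclear receptor. Its replicate ranks were 125, 172 and 140.

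The remaining 6 of the 12 strongest lay in CG32486, dnr1, crp, spen, Gug and Lrch, at ranks 199 to 283. The gene dnr1 restrains the caspase of the immune deficiency pathway, crp codes for a helix-loop-helix factor related to AP-4, and spen for an RNA-binding corepressor in Notch and EGF receptor signalling. Of these 12 summits, 10 lay in a first intron, and those in crp and spen in the second. The replicate ranks of the summit in dnr1 were 133, 168 and 451 and of that in Lrch 164, 370 and 465, so both were lower in replicate 3. The 5 summits farthest from any TSS lay in hth, mamo, Snoo and Ca-alpha1T, at 40328 to 47628 bp. Those in mamo, a zinc-finger gene of the germ line, and Snoo had support in all 3 replicates (ranks 915, 1471 and 594, and 827, 373 and 545), and those in hth and Ca-alpha1T did not.

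The most summits lay in rdx, or roadkill, the Cullin-3 adaptor that targets the Hedgehog effector Ci for degradation, with 9 in 34.2 kb of deep intronic sequence. They spanned 18.7 kb at 7537 to 20558 bp from a TSS, and 6 of 9 had support in all 3 replicates. The strongest rdx summit (3R, 14018219) ranked 989, 692 and 422 in the replicates, and the 3 farthest from a TSS were each missing from the top list of replicate 3. In sbb, 7 of 8 summits had support, and in Snoo, the Sno oncogene homologue that modulates Smad signalling, 5 of 8. The Snoo summits all lay in a first intron of 78.4 kb and reached from 12265 to 41843 bp.

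The gene tara held 7 summits, 5 with support, on both sides of an inner start. They lay 5831 to 10425 bp from the nearest TSS, which for those at 16253670 and 16254854 was that of bor. The nuclear receptor gene ftz-f1 held 7, of which 2 had support, and 6 of these also lie in the non-coding gene lncRNA:CR45939. The gene elB, a zinc-finger gene of tracheal and leg development, held 6 summits in 11.8 kb, a density of 50.9 per 100 kb and the highest of these hosts, but 2 had support. Its summit at 2L, 14394385, ranked 1031 and 2596 in replicates 1 and 2 and had no match in the relaxed list of replicate 3. The density was 45.6 per 100 kb in simj, 43.4 in tara and 10.6 in Snoo, against 1.86 over all protein-coding genes with deep intronic sequence. These densities count every summit, and some neighbours matched the same replicate peak. In elB, those at 14394385 and 14394590 both matched rank 2596 of replicate 2. Over all deep intronic summits, 47 gaps between neighbours were under 1000 bp.

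**Figure D5:**
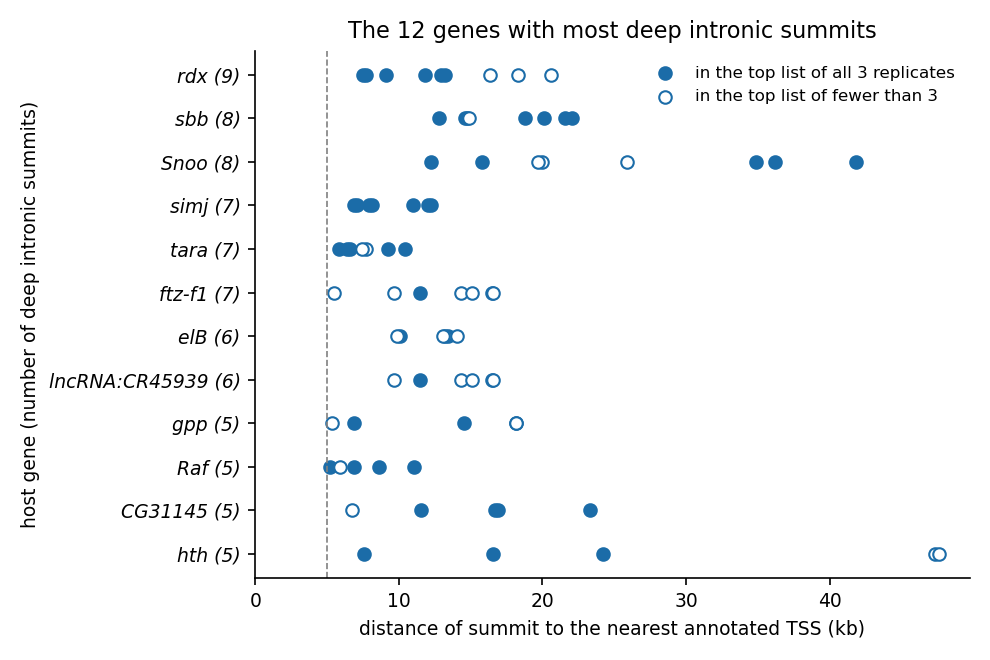
Distance in kb from the nearest annotated TSS of every deep intronic summit in the 12 genes with most such summits (numbers in brackets), filled where all 3 replicates' top lists held it. All 7 summits of simj are filled, while 2 of 7 in ftz-f1 and 2 of 6 in elB are, and the dashed line marks the limit of 5 kb.

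Promoter summits of protein-coding hosts and of the other protein-coding genes with deep intronic sequence were counted in 4 wide ranges of the length of that sequence, as a description with no test. With up to 5 kb of deep intronic sequence, 62.5% of 48 hosts and 31.6% of 772 other genes had a summit of the IDR set within 500 bp of a TSS. With 5 to 15 kb it was 52.2% against 27.5%, with 15 to 40 kb 55.7% against 29.0%, and above 40 kb 36.9% against 16.3%. Snoo, Raf and hth held 5 or more deep intronic summits and no promoter summit. These are descriptions of genes that share a locus with the peak, and the expression of the hosts was not measured.

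Lists of genes by function were compared by count with the 18.5% of protein-coding genes with deep intronic sequence that held a summit. No test was made over the lists, whose deep introns differ in length. Of 13 nuclear receptor and ecdysone genes with such sequence, 5 held 18 summits, 5.94 per 100 kb. They were ftz-f1 with 7, Hr4 with 4, Eip74EF with 3, Eip75B with 3 and Hr3 with 1. The strongest of the Eip75B summits ranked 343, 1140 and 994 in the replicates. Of the 18 summits, 8 had support in all 3 replicates.

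Of 26 genes of the EGFR, Notch and Wnt lists, 12 held a summit, 46.2%, with 20 summits at 4.25 per 100 kb. The receptor gene N had 1, at replicate ranks 865, 618 and 791, the Frizzled receptor gene fz had 4 and the Notch coactivator gene mam 4, of which 1 had support. The repressor gene aop had 1, and the ligand genes Wnt6 and dpp 1 each. Of 10 homeotic genes and cofactors, 3 held 9 summits. They were 5 in hth, the partner of Hox proteins, 3 in Antp, whose first ranked 930, 765 and 644, and 1 in cad. Of 9 Polycomb and trithorax genes, 3 held a summit, in trx, Psc and psq. Their density was the highest of all lists, 6.75 per 100 kb, but from 4 summits in 59.3 kb.

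Of 19 mesoderm and muscle genes, 7 held 10 summits, among them kirre with 3, Zasp52 with 2 and how with 1. Of 16 tracheal and epidermal genes, 6 held a summit, led by baz, shn and pyd, and of 5 forkhead, GATA and gut genes, 2 did, ush and foxo. Of 41 axon guidance and adhesion genes, 12 held 20 summits, 29.3%, but their density was 1.33 per 100 kb, below the 1.86 of all coding genes. Their strongest was in fra, the Netrin receptor gene, at rank 1428, followed by unc-5 and Nrg.

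Of 26 neural and neuroblast transcription factor genes, 3 held a summit, 11.5%, and these were mamo, mam and nub. Of 35 ion channel and synaptic genes, 6 did, 17.1%, led by dnc, a cAMP phosphodiesterase gene with 4 summits, and Nlg3. Of 18 RNA-binding genes, 5 did, 27.8%, in 1043 kb of deep intronic sequence, at the lowest density of all lists, 0.575 per 100 kb. Their strongest was that in pum, at rank 966 and with the forkhead word shown above.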

How the data were processed

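ChIP-seq peak lists of 3 replicates were used. The authors deposited 30000 relaxed peaks per replicate and for the pooled replicates, and the IDR set made from them, per the labels and derivation records, on build dm6. Column 7 of each list is the authors' signal per peak and was used only for ranks within a list. The depth is unknown, since read numbers are not given in the sources used here, nor are aligner, peak caller and IDR threshold. Intervals cover counting error only. The summit offsets were deposited with the peaks. The −log10 q-values were not used.

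Genes came from Ensembl 115 (BDGP6.54, transposable elements left out as genes) and sequence from the release 6 genome. Each summit was placed by distance to the nearest TSS and by exon overlap, and expected shares are shares of bases under the same rule. A summit was supported by a replicate with a summit of its top 5724 within 200 bp. Binomial, McNemar, sign and Fisher tests were exact and two-sided, and Benjamini-Hochberg adjusted within each family at 0.05. Tests were checked on simulated data. Leaving a replicate out kept IDR summits supported by both others. Members, lists, motifs and tests were chosen with earlier results of these data known. Named were the 12 strongest supported and 5 farthest summits, the 8 hosts with most summits, up to 3 genes per list, and the 5 words most enriched and depleted with at least 20 discordant summits. Other genes and words were named after their values were seen. Of 370 listed symbols, 354 matched. Tools were scipy 1.17.1 for tests, pandas 2.3.3 and numpy 2.4.6 for tables, matplotlib 3.10.9 for plots, under Python 3.11.15. One gene list and 1 sequence are not reported here.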

Additional observations from a re-analysis of the deposited data

How the results depend on the processing

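Of 149 recomputed values of the main results, 125 kept their direction and side of the threshold, or stayed within 1.5 times for counts. The share of summits against bases stayed at 0.302 to 0.469, the first intron ratio at 1.66 to 1.94, and the share of windows with higher GC at the summit at 27.5% to 35.9%, in all settings tried for them. Without replicate 1, 2 or 3, with fewer summits, the called arms numbered 0 to 1, the called motifs 3 to 4 and the oriented words 11 to 15. The odds ratio of high signal against intergenic summits was then 0.616 to 0.726. With only the summits of all 3 replicates, 0 arms were called and that odds ratio was 0.677. Among the 2862 strongest, with fewer summits, 1 arm, 2 motifs, 24 words and 3 oriented words were called. With 1 summit per 1000 bp, 1 arm was called, and support was lower than in near intronic summits (odds ratio 0.762). At a limit of 10 kb, with fewer summits, 2 motifs, 23 words, 1 oriented word and 2 class differences were called, and the intergenic odds ratio was 0.683. With ranks of replicate 2 alone it was 0.717. Windows of 50 bp gave 79 words. With the relaxed lists of 30000 peaks the support difference from promoters reversed, to an odds ratio of 2.61 (97.8% against 94.4%), and the cause was not tested. Among 325 values of single words, motifs, bins and arms, 228 did not change call, 88 lost it and 9 gained it. The tests of word direction and the settings without transposable elements were chosen after seeing the data. Unknown depth limits any reading of peak absence. No paired analysis was possible because there is 1 group.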

Other observations

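Of the 18 oriented words, 11 did not pass the test of higher frequency at the summit, and 5 of these 11 held only purines. AGAGAA was inward at 104 and outward at 39 deep intronic summits, and AGAAAA at 165 against 87. ACAGGG had the highest inward share among these 11, with 41 summits against 12, followed by AACAGG with 49 against 15. CAATTA was inward at 98 and outward at 48.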
